A study of Mus musculus with 8 samples.

Results

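The 10 genes described here, Acta2, Tagln, Cnn1, Myh11, Lmod1, Rgs5, Cspg4, Mcam, Pdgfrb and Notch3, mark pericytes and vascular smooth muscle cells, and were taken by gene symbol from a table of 26667 genes. All 10 were in the table, and all 10 passed the filter on low counts. The measurements were RNA-seq counts from formalin-fixed, paraffin-embedded sections of 8 undifferentiated pleomorphic sarcomas (UPS) of the mouse hind limb, with 1 library per tumour. KP tumours (KP 5, 6, 7 and 8) came from KP mice, which carry Trp53 fl/fl, and KPH2 tumours (KPH2 1, 2, 3 and 4) from KP mice that carried Epas1 fl/fl in addition, all on a mixed 129/C57BL/6 background. The alleles of the KP mouse, with loss of Trp53, were therefore shared by both groups, and the groups differed in Epas1, which encodes HIF-2α and is labelled wild type in KP and Epas1 -/- in KPH2 tumours. Adult males and females were used, and the sex of each mouse is not given in the sources used here. Tumours were started by injecting an adenovirus carrying Cre recombinase into the gastrocnemius muscle, so recombination occurred in the cells that took up the virus, of whichever type, and a section can hold recombined tumour cells together with host vessels and muscle.

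Pericytes sit on capillaries and smooth muscle cells wrap larger vessels, and both are called mural cells. Endothelial cells release PDGF-B, which draws in pericytes through the receptor PDGFRβ, and endothelial Jagged1 activates NOTCH3 on mural cells. The contractile genes of smooth muscle are driven by serum response factor (SRF), which binds CArG boxes in their promoters, with myocardin family cofactors. Myofibroblasts and many sarcoma cells also express contractile genes and PDGFRβ, so none of the 10 genes belongs to mural cells alone.

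To show the element through which SRF is known to act, the CArG-like elements near the start of Acta2 and of Myl9, a myosin light chain gene whose profile over the tumours lay close to that of Acta2 (described further on), are printed 5′ to 3′ with the 10-base element in capitals. They come from the RefSeq promoter table for GRCm38.p6, which holds 250 bases before to 50 bases after each start.
Acta2, chr19:34255438-34255467, minus strand, element from base -84: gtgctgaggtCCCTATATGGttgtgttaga
Acta2, chr19:34255388-34255417, minus strand, element from base -34: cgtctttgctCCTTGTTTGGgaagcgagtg
Myl9, chr2:156775293-156775322, plus strand, element from base -161: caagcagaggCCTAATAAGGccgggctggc
Myl9, chr2:156775355-156775384, plus strand, element from base -99: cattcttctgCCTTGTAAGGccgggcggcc

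The Myl9 element at base -161 is a full CArG box, with only A and T in its core of 6 bases, and the other elements have 1 base other than A or T in the core. Both forms read the same on either strand. Across all 32851 windows of the promoter table, 1.63% held a full CArG box and 9.98% held a full or CArG-like one. Of the 10 genes, 7 had a window that was read (Acta2, Cnn1, Lmod1, Rgs5, Cspg4, Mcam and Notch3). Acta2 was the only one of these with a match. Windows on chromosome 18, where Pdgfrb lies, were left out of this reading. The Acta2 elements lie upstream of the start used in the table and inside the annotated span of the gene. The window of the contractile gene Des was also read and held no match. A match is a description of these windows and not a measured binding site.

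Total counts ran from 6463221 to 13155510 per tumour, positions are given on GRCm38.p6, and levels as CPM (counts per 1e+06 counts of the library size, scaled by the TMM method). KPH2 1 is shown apart, because the study excluded 1 knockout tumour from its own comparison on technical grounds and KPH2 1 is absent from the deposited table of 7 tumours. Fold changes are therefore KPH2 2 to 4 against KP 5 to 8, with the comparison over all 8 tumours beside them for the 10 genes, on the log2 scale with a standard error (SE). They come from the quasi-likelihood test of edgeR, and its p-values were adjusted by the Benjamini-Hochberg method over every gene tested. Each SE was derived from that test, as the absolute log2 fold change divided by the square root of the F statistic. The deleted gene Epas1 averaged 78.1 ± 12.4 CPM (SD, 4 tumours) in KP against 44.8 ± 8.44 CPM (SD, 3 tumours) in KPH2, and no KPH2 tumour reached a KP value. Its log2 fold change was -0.81 and missed the threshold (edgeR adjusted p = 0.0742, and 0.117 with KPH2 1), while DESeq2 gave adjusted p-values of 0.0115 over 7 and 0.00562 over 8 tumours. With each tumour left out, the adjusted p of Epas1 from edgeR ran from 0.0442 to 0.219. These counts cover the whole gene and not the deleted part alone. Separate mice are not stated for each library, so the p-values measure the spread between these samples.

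Of the 10 genes, 1 changed: Cnn1 fell in KPH2 tumours. Of all 14867 tested genes, 0.72% were called lower and 1.24% called higher in KPH2 tumours by the same test. The log2 fold change was negative for 9 of the 10 genes and positive for 1, Notch3, with a median of -0.42 against -0.02 over all tested genes. Over all 8 tumours no member passed the edgeR test, 2 had an unadjusted p under 0.05 and the median was -0.61. Of the 14805 genes that edgeR tested over 8 tumours, 0.00675% were called in either direction. DESeq2 called 2 of the 10 lower over 8 tumours, against 2.38% of the 15980 genes it tested there. An unadjusted p under 0.05 was found for 3 of the 10 genes and 17.8% of all tested genes over 7 tumours, and for 14.7% of all tested genes over 8. In bulk sections, fewer cells of a type and less RNA per cell cannot be told apart.

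**Figure D1:**
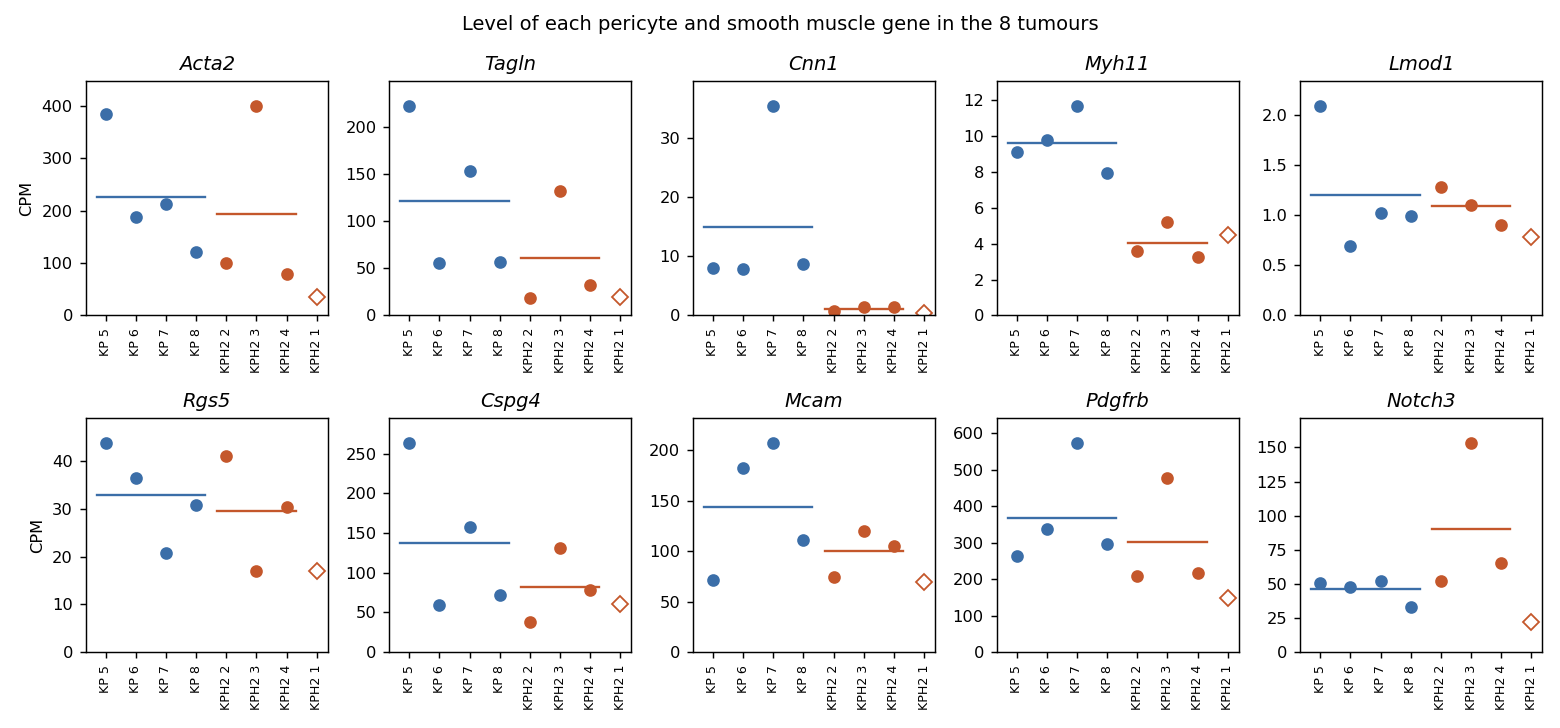
Level of each of the 10 genes (CPM, linear axes starting at 0) in the KP tumours (blue), KPH2 2 to 4 (filled orange) and KPH2 1 (open diamond), with horizontal lines at the means of KP and of KPH2 2 to 4. For Cnn1 and Myh11 every KPH2 point lies below every KP point, while the groups of the other 8 genes overlap.

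Among the contractile genes, the drop was steepest in Cnn1 (Entrez Gene 12797, chromosome 9 from 22099221 to 22109221), which encodes calponin 1, an actin-binding protein of differentiated smooth muscle. Its level was 7.92, 7.83, 35.3 and 8.71 CPM in KP 5, 6, 7 and 8. In KPH2 2, 3 and 4 it was 0.732, 1.41 and 1.35 CPM, from 8, 14 and 12 counts, and in KPH2 1 it was 0.470 CPM from 6 counts. Every KPH2 tumour lay below every KP tumour, and KP 7 stood far above the other KP tumours. KP tumours averaged 14.9 ± 13.6 CPM (SD, n = 4) against 1.16 ± 0.374 CPM (SD, n = 3) for KPH2 2 to 4, a 12.9-fold difference. On the log2 scale this was -3.69 (SE 0.73, edgeR adjusted p = 0.0491). A 2-sided exact permutation test gave p = 0.0286 over the 7 and also over the 8 tumours, the smallest value either design allows. Including KPH2 1 gave a log2 fold change of -3.93 with a standard error of 0.66 and an adjusted p of 0.102 from edgeR. DESeq2 gave an adjusted p of 6.64e-07 over 7 tumours and 1.13e-07 over all 8.

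The call for Cnn1 lay close to the threshold and depended on single libraries, being kept without KP 5 or KP 7. Without KP 7 the log2 fold change was -2.81 and the adjusted p from edgeR 0.0317. Leaving out KP 6, KP 8, KPH2 2, KPH2 3 or KPH2 4 gave adjusted p-values from edgeR of 0.0684, 0.0704, 0.166, 0.119 and 0.127, with log2 fold changes between -3.90 and -3.43.

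Myh11 (Entrez Gene 17880, chromosome 16 from 14194527 to 14292188), the smooth muscle myosin heavy chain, also separated the groups. It was measured at 9.12, 9.78, 11.7 and 7.95 CPM in KP 5, 6, 7 and 8. The KPH2 tumours 2, 3 and 4 had 3.56, 5.22 and 3.26 CPM, and KPH2 1 had 4.47 CPM. The KP tumours were close together and all above the KPH2 tumours, KPH2 1 included. Group means were 9.63 ± 1.56 CPM for KP (SD, n = 4) and 4.02 ± 1.05 CPM for KPH2 2 to 4 (SD, n = 3). The log2 fold change of -1.27 (SE 0.27) missed the threshold with an adjusted p of 0.0588 from edgeR, and DESeq2 gave an adjusted p of 0.00241. Over all 8 tumours it was -1.22, with adjusted p-values of 0.109 from edgeR and 0.00135 from DESeq2. The exact permutation test gave p = 0.0286 over 7 and over 8 tumours, again the smallest possible.

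Cnn1 and Myh11 were the 2 members, of 10, whose KPH2 values all lay below the KP values, over 7 and over 8 tumours. Among all tested genes 7.83% were lower without overlap over 7 tumours and 4.4% over 8. No member was higher without overlap, against 9.01% of tested genes over 7 tumours. By DESeq2, Cnn1 and Myh11 were the 2 members called, and 3.43% of the 16315 genes it tested were called lower.

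Acta2 (Entrez Gene 11475, chromosome 19 from 34240336 to 34255585), smooth muscle α-actin, varied within both groups. The KP tumours 5, 6, 7 and 8 had 384, 187, 213 and 120 CPM. In KPH2 2, 3 and 4 it reached 99.8, 399 and 79.4 CPM, and KPH2 1 had 35.5 CPM. The highest value of all 8 tumours was in KPH2 3 and the lowest in KPH2 1, so the KPH2 group alone spanned the whole range. KPH2 against KP gave -0.24 on the log2 scale (SE 0.61, edgeR adjusted p = 0.881), and -0.57 once KPH2 1 was added (edgeR adjusted p = 0.748). With each tumour left out it ran from -1.35 without KPH2 3 to 0.14 without KP 5 (edgeR adjusted p from 0.221 to 0.975). None of the 1936 windows of 100 bases in the longest Acta2 transcript occurred in a transcript of another gene, the other actin genes included.

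Tagln (Entrez Gene 21345, chromosome 9 from 45929628 to 45936058), which encodes the actin-bundling protein transgelin (SM22α), had 223, 55.8, 154 and 56.5 CPM in KP 5, 6, 7 and 8. In KPH2 2, 3 and 4 it had 18.6, 133 and 32.4 CPM, and in KPH2 1 it had 19.7 CPM. KPH2 3 lay among the KP tumours and the other KPH2 tumours lay below all of them. The log2 fold change of -1.01 had a standard error of 0.76 and an adjusted p of 0.547 from edgeR, and adding KPH2 1 gave -1.27 with an adjusted p of 0.457. With each tumour left out in turn it ran from -2.27 without KPH2 3 to -0.54 without KP 5, and the adjusted p from edgeR from 0.19 to 0.795. Tagln overlaps Pcsk7 over 2480 bases, and 33.2% of the 100-base windows of its transcript also occurred in a transcript of Pcsk7 or Gm48529, so its counts are uncertain.

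Lmod1 (Entrez Gene 93689, chromosome 1 from 135324813 to 135368065), leiomodin 1, an actin filament nucleator of smooth muscle, was scarce. It gave 28, 5, 7 and 13 counts in KP 5, 6, 7 and 8. KPH2 2, 3 and 4 gave 14, 11 and 8 counts and KPH2 1 gave 10. KP 5, at 2.09 CPM, stood above the rest, which lay between 0.699 and 1.28 CPM. Its log2 difference was -0.18 (SE 0.45, edgeR adjusted p = 0.885), and -0.27 with KPH2 1 (edgeR adjusted p = 0.8).

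**Figure D2:**
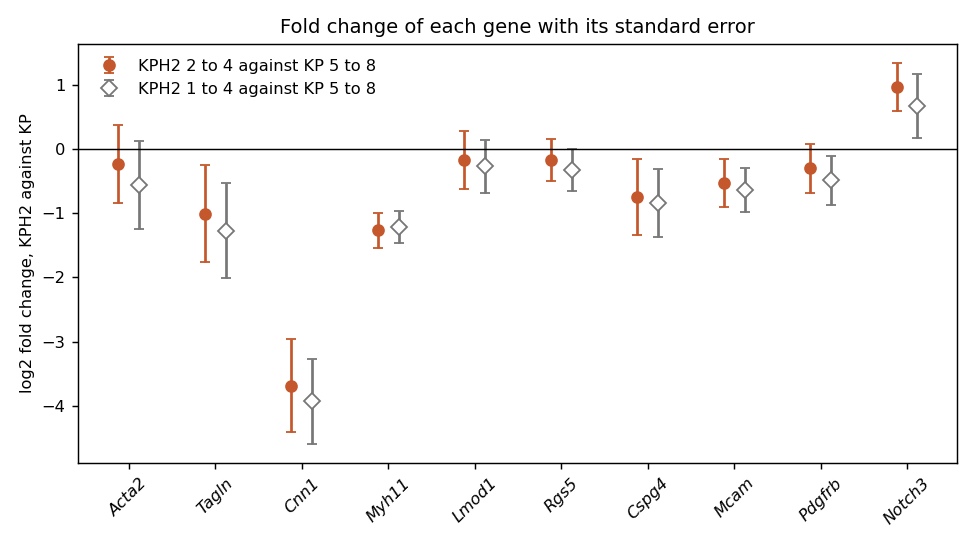
Log2 fold change of KPH2 against KP tumours (points, with bars of 1 standard error derived from the edgeR test) for each gene, without KPH2 1 (filled circles) and with it (open diamonds). Cnn1 at -3.69 and Myh11 at -1.27 lie farthest below 0 relative to their errors, and Notch3 is the only gene above 0 in both comparisons.

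None of the 5 genes of pericyte surface and signalling passed the edgeR test or that of DESeq2, and 1, Notch3, had an unadjusted p under 0.05. Rgs5 (Entrez Gene 19737, chromosome 1 from 169655501 to 169695813), a regulator of G protein signalling widely used as a pericyte marker, had 43.8, 36.3, 20.7 and 30.8 CPM in KP 5, 6, 7 and 8. For KPH2 2, 3 and 4 it was 41.0, 17.1 and 30.4 CPM, and for KPH2 1 it was 17.1 CPM. The groups covered nearly the same range, and the log2 difference was -0.17 (SE 0.33, edgeR adjusted p = 0.84), or -0.33 with KPH2 1 (edgeR adjusted p = 0.694). Rgs5 was lowest, and nearly level, in KPH2 3 and KPH2 1, the tumours with the highest and the lowest Acta2.

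Cspg4 (Entrez Gene 121021, chromosome 9 from 56865104 to 56899870), the NG2 proteoglycan of pericytes and some progenitor cells, had 264, 59.0, 157 and 72.3 CPM in KP 5, 6, 7 and 8. The KPH2 tumours 2, 3 and 4 had 38.6, 131 and 78.4 CPM, and KPH2 1 had 60.3 CPM. All KPH2 tumours but KPH2 2 lay inside the KP range, at a log2 difference of -0.75 (SE 0.59, edgeR adjusted p = 0.563) and of -0.84 with KPH2 1 (edgeR adjusted p = 0.49). With each tumour left out it ran from -1.25 without KPH2 3 to -0.23 without KP 5 (edgeR adjusted p from 0.432 to 0.857).

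Mcam (Entrez Gene 84004, chromosome 9 from 44134658 to 44142727), the adhesion molecule CD146 of endothelial and mural cells, had 72.0, 183, 207 and 111 CPM in KP 5, 6, 7 and 8. Levels in KPH2 2, 3 and 4 were 74.6, 120 and 105 CPM, with 69.6 CPM in KPH2 1. KP 5, which was highest for Tagln and Cspg4, was the lowest KP tumour here and lay beside KPH2 1 and KPH2 2. Between the groups the log2 difference was -0.54 (SE 0.37, edgeR adjusted p = 0.507), and with KPH2 1 it was -0.64 (edgeR adjusted p = 0.419).

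Pdgfrb (Entrez Gene 18596, chromosome 18 from 61045127 to 61085067), the receptor for PDGF-B, had 265, 339, 574 and 296 CPM in KP 5, 6, 7 and 8. In KPH2 2, 3 and 4 there were 210, 477 and 218 CPM, and in KPH2 1 there were 148 CPM. The groups overlapped through KPH2 3, at a log2 difference of -0.30 (SE 0.38, edgeR adjusted p = 0.736), and of -0.49 with KPH2 1 (edgeR adjusted p = 0.596).

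Notch3 (Entrez Gene 18131, chromosome 17 from 32120820 to 32166896), the Notch receptor of mural cells, had 50.6, 47.8, 52.5 and 32.8 CPM in KP 5, 6, 7 and 8. KPH2 2, 3 and 4 had 51.8, 153 and 65.4 CPM, while KPH2 1 had 22.4 CPM, the lowest of all. KPH2 3 and KPH2 4 lay above every KP tumour, and KPH2 2 was level with KP 5 and KP 7. Notch3 differed by 0.96 on the log2 scale (SE 0.37, edgeR adjusted p = 0.227) over 7 tumours and 0.66 (edgeR adjusted p = 0.568) over 8. With each tumour left out it ran from 0.34 without KPH2 3 to 1.25 without KPH2 2 (edgeR adjusted p from 0.18 to 0.577). The exact permutation test gave p = 0.0571 and, with KPH2 1, p = 0.629. Notch3 overlaps the long non-coding RNA genes Gm38585 and Gm41568, and 3.69% of the 100-base windows of its transcript occurred in a transcript of Gm17276, so part of its counts is uncertain.

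Levels can be ranked between genes only per length, here as CPM per kilobase of exons in the KP tumours. Acta2 had 102.9 ± 51.1 CPM per kilobase (SD, n = 4), followed by Pdgfrb at 67.2 ± 25.6, Tagln at 61.4 ± 40.9 and Mcam at 42.8 ± 18.7, each within the spread of its neighbour. Cspg4 at 11.6 ± 7.91, Rgs5 at 7.24 ± 2.14, Notch3 at 5.68 ± 1.11 and Cnn1 at 5.46 ± 4.96 CPM per kilobase formed a lower group whose neighbours also overlapped. Myh11 had 1.27 ± 0.205 and Lmod1 0.304 ± 0.155 CPM per kilobase. The defining genes of mature smooth muscle, Myh11 and Lmod1, were thus detected in every tumour, and in KP tumours had the lowest mean levels of the 10. In KPH2 2 to 4 Acta2 had 87.8 ± 81.5 CPM per kilobase (SD, n = 3), Notch3 11.1 ± 6.82, Myh11 0.528 ± 0.139, Cnn1 0.425 ± 0.137 and Lmod1 0.277 ± 0.0481, where Myh11 and Cnn1 lay within each other's spread.

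The 10 genes did not follow one profile over the tumours. Likeness was measured as the root mean square difference of log2 CPM, each gene centred on its own mean over the 8 tumours, as a description. The closest pair was Mcam and Pdgfrb with a difference of 0.36, then Lmod1 and Rgs5 with 0.49 and Myh11 and Pdgfrb with 0.53. Acta2 and Tagln differed by 0.58. For scale, the profile of Acta2 differed from a flat one by 1.10 and that of Rgs5 by 0.51, so the distance between Lmod1 and Rgs5 was hardly smaller than that of Rgs5 from no variation. Among 14978 genes, those nearest to Acta2 were the collagen gene Col23a1 (0.37), Myl9 (0.42) and Dync1i1 (0.50). Those nearest to Rgs5 were Ifi35 (0.17), Cyp2j6 (0.21) and AW011738 (0.22).

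Myl9, whose CArG box is printed above, had 131, 46.7, 71.2 and 39.7 CPM in KP 5, 6, 7 and 8. Its levels in KPH2 2, 3 and 4 were 15.3, 66.6 and 16.1 CPM, with 8.07 CPM in KPH2 1. KPH2 3 lay among the KP tumours, as for Tagln, and the lowest value was in KPH2 1, as for Acta2. Its log2 fold change was -1.16 (edgeR adjusted p = 0.393), or -1.45 with KPH2 1 (edgeR adjusted p = 0.352), and with each tumour left out it ran from -2.22 without KPH2 3 to -0.69 without KP 5 (edgeR adjusted p from 0.118 to 0.674).

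Other genes of the same programmes were described as lists. None of 19 tested genes among 20 other contractile and cytoskeletal genes passed the edgeR test, 5 had an unadjusted p under 0.05 and 2, Des and Actg2, were called higher by DESeq2. Their median log2 fold change was 0.32, with 12 of 19 positive. The smallest p-values were for Des, desmin, with means of 51.2 ± 23.1 and 182 ± 106 CPM (SD) in KP and KPH2 2 to 4 (log2 fold change 1.82, edgeR adjusted p = 0.106). They were followed by Actg2, smooth muscle γ-actin, at 1.22 ± 0.594 and 9.75 ± 12.4 CPM (log2 fold change 2.96, edgeR adjusted p = 0.195). KPH2 3 carried most of this, with 23.8 CPM against 0.337 CPM in KPH2 4, and with each tumour left out the log2 fold change of Actg2 ran from 1.14 without KPH2 3 to 3.53 without KPH2 4 (edgeR adjusted p from 0.0584 to 0.603). Over all 8 tumours DESeq2 gave adjusted p-values of 0.159 for Des and 0.16 for Actg2. Desmin is also a skeletal muscle protein. None of 9 tested SRF and myocardin regulators passed the edgeR test, 0 had an unadjusted p under 0.05 and DESeq2 called 0, with a median log2 fold change of 0.11. The smallest p-values there belonged to Mef2c (adjusted p = 0.482) and Elk1 (adjusted p = 0.613), both from edgeR.

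Of 21 tested genes among 22 other pericyte genes, 1 fell and 15 were negative, with a median log2 fold change of -0.46. An unadjusted p under 0.05 was found for 6, of which 2 were higher and 4 lower, and DESeq2 called 3 lower (Steap4, Agtr1a and Cd248). The gene that fell was Steap4, a metalloreductase gene. It had 36.5, 59.1, 91.0 and 43.7 CPM in KP 5, 6, 7 and 8. In the KPH2 tumours 2, 3 and 4 it had 12.2, 13.5 and 21.1 CPM, and KPH2 1 had 27.0 CPM. Every KPH2 tumour lay below every KP tumour, at a log2 difference of -1.90 (SE 0.37, edgeR adjusted p = 0.0457) over 7 tumours and -1.64 (edgeR adjusted p = 0.132) over 8. With 1 tumour left out at a time, the call was kept without KP 5 alone, and leaving out KP 6, KP 7, KP 8, KPH2 2, KPH2 3 or KPH2 4 gave adjusted p-values from edgeR of 0.0991, 0.0671, 0.0688, 0.158, 0.124 and 0.0624. Steap4 had -0.91 on the log2 scale (edgeR adjusted p = 0.689) once a score of skeletal muscle markers entered the fit, and with an endothelial score -1.35 (edgeR adjusted p = 0.169).

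Among 13 tested genes of PDGF and Notch signalling, 1 fell, and the median log2 fold change was 0.08. An unadjusted p under 0.05 was found for 6, of which 3 were higher and 3 lower. The gene that fell was Pdgfra, the sister receptor of Pdgfrb, found on fibroblasts. It had 1503, 911, 709 and 859 CPM in KP 5, 6, 7 and 8. KPH2 2, 3 and 4 had 227, 274 and 238 CPM, and KPH2 1, at 627 CPM, lay between the groups. Pdgfra differed by -2.02 on the log2 scale (SE 0.27, edgeR adjusted p = 0.0183) over 7 tumours and -1.54 (edgeR adjusted p = 0.16) over 8. The call was kept in 6 of 7 fits that left out a tumour, and without KPH2 2 the adjusted p from edgeR was 0.0718. With the skeletal muscle score as a covariate Pdgfra had -2.35 (edgeR adjusted p = 0.214), and with the endothelial score -2.43 (edgeR adjusted p = 0.0122). The ligand Pdgfb, chosen after its values were seen, averaged 27.0 ± 6.83 CPM (SD, n = 4) for KP against 26.7 ± 4.66 CPM (SD, n = 3) for KPH2 2 to 4.

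Beside Notch3, the Notch genes named here were chosen after their values were seen. Heyl, a Notch target of mural cells, had 5.01, 15.7, 23.3 and 6.65 CPM in KP 5, 6, 7 and 8. KPH2 2, 3 and 4 had 113, 68.0 and 45.1 CPM, and KPH2 1 had 10.03 CPM. KPH2 2 to 4 lay above every KP tumour and KPH2 1 lay within the KP range. Heyl differed by 2.57 on the log2 scale (SE 0.56, edgeR adjusted p = 0.0628) over 7 tumours and 2.22 (edgeR adjusted p = 0.234) over 8, and DESeq2 gave adjusted p-values of 6.51e-05 and 0.0225. The other Notch targets tested had log2 fold changes of 0.28 for Hes1, 0.08 for Hey1 and -0.93 for Nrarp, with adjusted p-values from edgeR of 0.749, 0.941 and 0.208. The ligand Jag1 had a log2 fold change of 0.95 (edgeR adjusted p = 0.157) and the endothelial ligand Dll4 one of -0.90 (edgeR adjusted p = 0.281). The other ligands tested had 1.17 for Dll1 (edgeR adjusted p = 0.201) and 0.17 for Jag2 (edgeR adjusted p = 0.742).

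**Figure D3:**
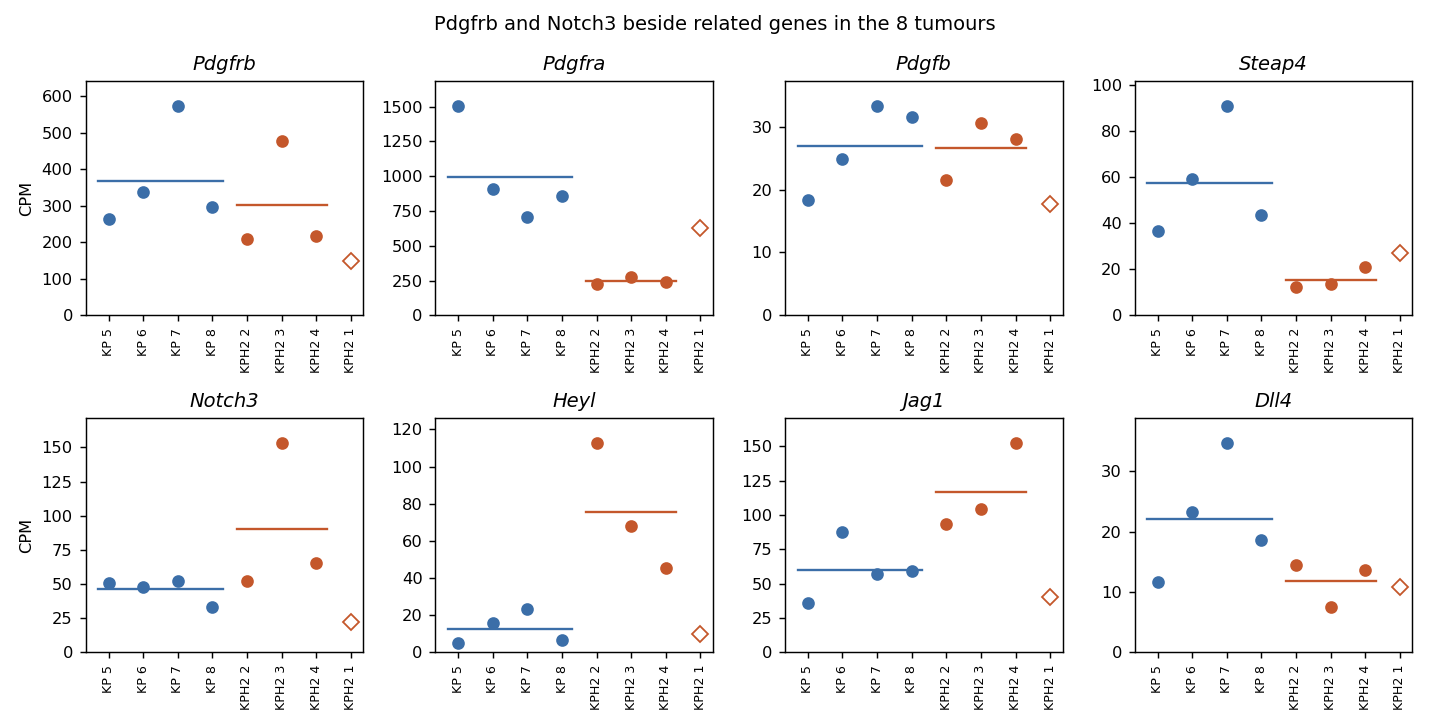
Levels (CPM, linear axes starting at 0) of Pdgfrb, Pdgfra, Pdgfb, Steap4, Notch3, Heyl, Jag1 and Dll4 in KP tumours (blue), KPH2 2 to 4 (filled orange) and KPH2 1 (open diamond), with lines at the means of KP and KPH2 2 to 4. Pdgfra and Steap4 are below every KP tumour in all KPH2 tumours, while Pdgfrb and Pdgfb overlap, and Heyl is above every KP tumour in KPH2 2 to 4 but not in KPH2 1.

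Marker lists of other cells differed between the sections as well, and their part in the results for the 10 genes was not tested. The skeletal muscle score used as a covariate is the mean log2 CPM of that list. It ran from 4.55 to 5.75 in KP and from 5.83 to 8.29 in KPH2 2 to 4, without overlap. A fit with this score therefore cannot separate muscle content from genotype. All 15 skeletal muscle markers were higher on average in KPH2 2 to 4, at a median log2 difference of 2.12, 14 had an unadjusted p under 0.05, and DESeq2 called 11 higher. By edgeR 1 rose, Neb, which encodes nebulin (log2 fold change 2.23, edgeR adjusted p = 0.043), with an adjusted p of 0.243 from edgeR over all 8 tumours. The call for Neb was kept in 1 of 7 fits with a tumour left out, the one without KPH2 4, and was lost without KP 5, KP 6, KP 7, KP 8, KPH2 2 or KPH2 3 (edgeR adjusted p from 0.0634 to 0.13). Their summed level ran from 1703 to 3155 CPM in KP, from 3966 to 18288 CPM in KPH2 2 to 4, and was 1387 CPM in KPH2 1. With the skeletal muscle score as a covariate, Cnn1 had a log2 fold change of -2.50 (edgeR adjusted p = 0.689) and Myh11 one of -1.41 (edgeR adjusted p = 0.531).

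None of 12 endothelial markers passed the edgeR test, 10 were negative, 5 had an unadjusted p under 0.05 and 3 were called lower by DESeq2, with a median log2 fold change of -0.55. Kdr, the VEGF receptor 2, had 76.5 ± 14.5 and 46.9 ± 2.25 CPM (edgeR adjusted p = 0.0818) and Esam, an endothelial adhesion molecule, 39.2 ± 8.86 and 21.8 ± 5.06 CPM (edgeR adjusted p = 0.118), each as mean ± SD in 4 KP and 3 KPH2 tumours. The summed endothelial level ran from 384 to 688 CPM in KP and from 386 to 389 CPM in KPH2 2 to 4, and was 274 CPM in KPH2 1. With the endothelial score as a covariate, Cnn1 had a log2 fold change of -3.05 (edgeR adjusted p = 0.151).

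None of 10 fibroblast and myofibroblast markers passed the edgeR test, 5 had an unadjusted p under 0.05 and DESeq2 called 1 lower. Of the 10, 9 were negative and the median log2 fold change was -0.79. Decorin (Dcn) had 995 ± 667 and 271 ± 44.1 CPM (edgeR adjusted p = 0.122) and podoplanin (Pdpn) 257 ± 99.5 and 139 ± 30.3 CPM (edgeR adjusted p = 0.208), again as mean ± SD in 4 KP and 3 KPH2 tumours. Their summed level ran from 21081 to 45818 CPM in KP and from 20169 to 30829 CPM in KPH2 2 to 4, with 26672 CPM in KPH2 1. None of 9 macrophage markers passed the edgeR test, 5 had an unadjusted p under 0.05 and DESeq2 called 1 lower. All 9 were negative, with a median of -0.59 and the smallest p-values for Mrc1 (adjusted p = 0.0951) and Cd163 (adjusted p = 0.183), both from edgeR. Their summed level ran from 2266 to 4201 CPM in KP and from 1657 to 2461 CPM in KPH2 2 to 4, and was 2129 CPM in KPH2 1.

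The Schwann cell and glial markers had a median log2 fold change of 0.06 over 7 tested genes. An unadjusted p under 0.05 was found for 4, of which 2 were higher and 2 lower, so the median covers changes in both directions. The calls in this list are not reported here. The summed level of the list ran from 79.4 to 127 CPM in KP and from 65.7 to 79.0 CPM in KPH2 2 to 4, and was 69.7 CPM in KPH2 1.

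**Figure D4:**
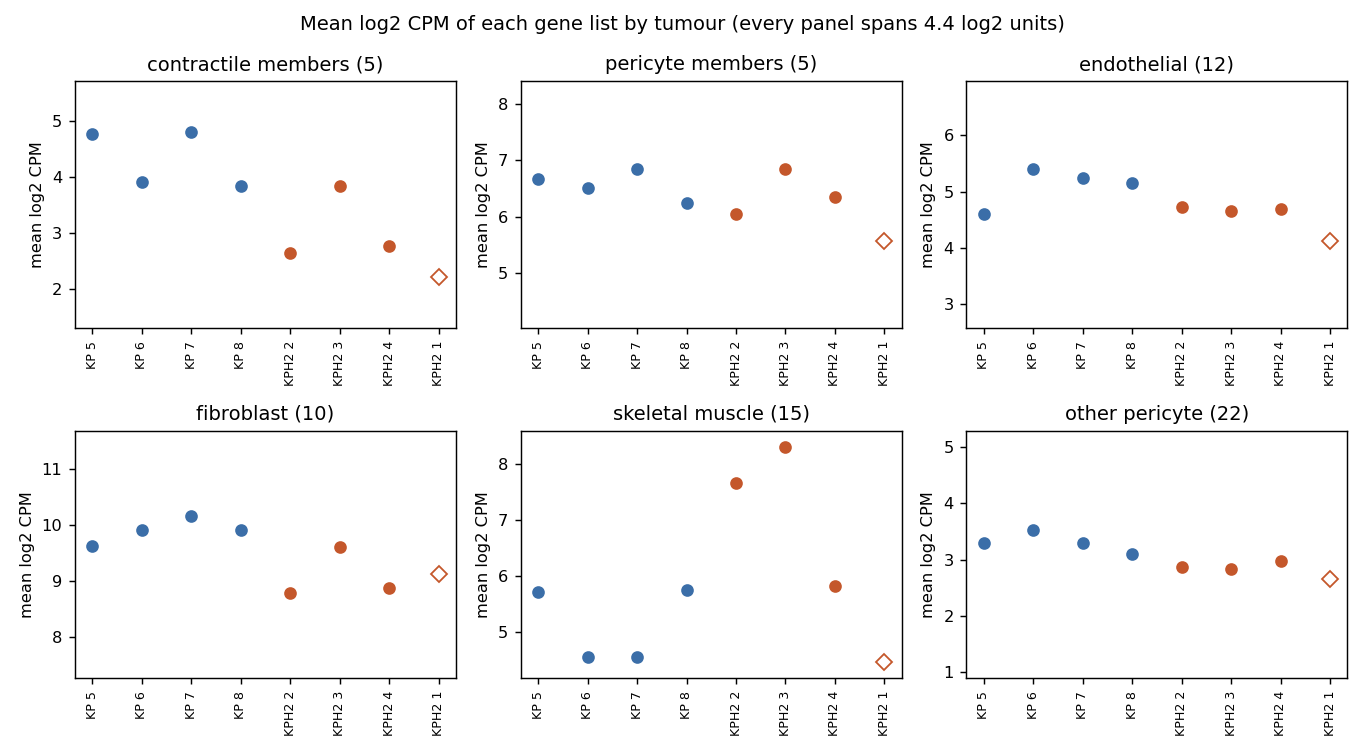
Mean log2 CPM of each gene list (every panel spans the same number of log2 units) in KP tumours (blue), KPH2 2 to 4 (filled orange) and KPH2 1 (open diamond), with the number of genes in brackets. The contractile members run from 3.83 to 4.80 in KP and from 2.65 to 3.84 in KPH2 2 to 4, the pericyte members overlap from 6.06 to 6.84 with 6.24 to 6.85, and the skeletal muscle markers lie above every KP tumour in KPH2 2 to 4 but not in KPH2 1.

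Per tumour, the 5 contractile members had a mean log2 CPM of 3.83 to 4.80 in KP tumours, 2.65 to 3.84 in KPH2 2 to 4 and 2.21 in KPH2 1. On this measure KPH2 3 was level with the lowest KP tumour. Their summed level ran from 194 to 625 CPM in KP and from 117 to 539 CPM in KPH2 2 to 4, with KPH2 3 at 539 CPM. The 5 pericyte members had a mean log2 CPM of 6.24 to 6.85 in KP, 6.06 to 6.84 in KPH2 2 to 4 and 5.57 in KPH2 1, and the groups overlapped. The median log2 fold change was -1.01, the value of Tagln, for the contractile members. It was -0.30, the value of Pdgfrb, for the pericyte members. For the 19 tested genes among the other contractile and cytoskeletal genes it was 0.32.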

How the data were processed

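RNA from 8 UPS tumours (4 KP, 4 KPH2) was sequenced from stranded, ribosomal RNA-depleted libraries. The submitters' processing notes name CASAVA 1.8.2, STAR 2.4, HTSeq 0.6.1, DESeq2 1.6 and GRCm38. The authors deposited raw counts per RefSeq gene for all 8 tumours, and log2 values from DESeq2's rlog transformation over 7 and over 8 tumours, used here only as an alternative. The strand setting of the counting is not given in the sources used here.

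The counts were tested with edgeR 4.0.16 under R 4.3.3 (TMM, minimum count 10, minimum total count 15, robust quasi-likelihood test, threshold 0.05 on the adjusted p). Log2 CPM used a prior count of 2. DESeq2 1.42.0 was an alternative, as were other scalings and filters, marker scores as covariates and leaving out each tumour. Exact permutation tests ran over 35 splits of 7 tumours and 70 of 8. Replicate numbers are not shared between groups, so nothing was paired. No pair of libraries was alike within sampling noise. On simulated counts with 200 changed genes, edgeR recovered 149 and called 15 unchanged genes, and DESeq2 174 and 56.

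The 10 genes, the lists and the tests were chosen with earlier results of these data known. Named beside the 10 genes were those past the threshold in each list (at most 5), or else the 2 with the smallest p, the 3 genes nearest in profile to Acta2 and to Rgs5, and Epas1. Pdgfb and the Notch genes other than Notch3 were added to these after their values were seen. An allele that both groups carry and 1 marker gene set by this rule are not reported here. Exon lengths came from GENCODE and positions from RefSeq.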

Additional observations from a re-analysis of the deposited data

Results flagged for a closer look

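In 2 of the 20 groups of 4 tumours, 1 tumour stood apart from the other 3 by more than Dixon's critical value of 0.829 for the gap divided by the range, where chance gives about 1 in 20. Cnn1 had 35.3 CPM in KP 7, with a gap of 0.968 of the range. Tagln had 133 CPM in KPH2 3, with a gap of 0.879 of the range over KPH2 1 to 4. Tagln shares bases with Pcsk7, and whether its counts include reads of that gene is not known.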

How the results depend on the processing

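The number of the 10 genes called was 1 (Cnn1) in the reported comparison, and it was 0 over all 8 tumours, without a filter on low counts, with a mean count of at least 50, and with the skeletal muscle or the endothelial score as a covariate. It was 2 (Cnn1 and Myh11) with DESeq2 over 7 tumours and over 8, the latter chosen after seeing the data. Leaving out each tumour gave 0 to 1, with Cnn1 called without KP 5 and without KP 7. Over all genes, 292 were called in the reported comparison, 1 over all 8 tumours, 1175 with DESeq2, 3 and 92 with the skeletal muscle and endothelial covariates, 648 with DESeq2 over 8 tumours, and 55 to 349 with each tumour left out. The cause of these changes was not tested.

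The log2 fold change of Mcam turned to 0.10 and 0.30 with the skeletal muscle and endothelial covariates, and that of Pdgfrb to 0.0292 with the endothelial covariate. With the skeletal muscle covariate the value was -0.0502 for Des, -1.85 for Actg2, -0.52 for Mef2c, 0.11 for Pdgfb and 0.0670 for Dll4, and Pdgfb had 0.33 with the endothelial covariate. The same covariates also enlarged values, to -1.93 for Acta2, -2.42 for Tagln, -1.28 for Cspg4, -0.80 for Lmod1 and -2.67 for Myl9 with the skeletal muscle score, and to -0.82, -1.80, -1.54, -0.74 and -1.86 in the same order, and 3.73 for Heyl, with the endothelial score. Among the values that shrank with the endothelial score were those of Dcn and Mrc1, both to -0.64, Cd163 to -0.30 and Dll4 to -0.15. Esam shrank to -0.20 with the skeletal muscle score. With each tumour left out, Pdgfb ran from -0.17 to 0.11. In the same fits the log2 fold change ran from -1.35 to 0.14 for Acta2, from -0.48 to 0.10 for Rgs5 and from -0.80 to 0.00225 for Pdgfrb. Over 17 alternatives Cnn1 ran from -3.94 to -2.50 (adjusted p from 1.13e-07 to 0.689) and Myh11 from -1.50 to -1.14 (adjusted p from 0.00135 to 0.531). On the authors' rlog values, which shrink genes with low counts, the difference in mean log2 level over 7 tumours was -1.57 for Cnn1 and -0.64 for Myh11, against -3.19 and -1.24 in log2 CPM. Over 8 tumours rlog gave -2.42 for Cnn1, -0.85 for Myh11 and 0.30 for Notch3. No paired analysis was possible because the groups share no replicate number. Cnn1 in KPH2 tumours and Lmod1 throughout rest on few counts, which limits the precision of their values, and the groups hold 4 and 3 tumours.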
